A study of Mus musculus with 12 samples.

Results

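The 8 genes described here belong to the Hedgehog pathway: Gas1, Ptch1, Hhip, Smo, Gli1, Gli2, Gli3 and Foxf1. They were chosen by name, as the probe sets whose single gene symbol in the platform's probe-to-gene table is one of these, and all 8 were measured, through 14 probe sets. They are 8 of 12393 genes tested. RNA came from 12 samples of cultured fetal mouse kidney of the strain C57BL/6, 6 labelled wild type and 6 labelled beta-catenin activated, which the source label describes as bearing tumors. Beta-catenin brings canonical Wnt signals into the nucleus, where it works with Tcf and Lef factors. Tamoxifen (2 mg for each 40 g of weight, into the peritoneum) was given to the pregnant mothers of both genotypes when the embryos were 10.5 dpc, days post coitum. Kidneys were taken at the same age, per the labels' protocols, and held in culture for 3 to 4 days. The culture held transferrin, insulin and selenium, at the same doses for all 12 samples. Neither the altered allele nor a Cre driver is named in the labels. Whether each array stands for a separate animal is not stated either, so p-values measure the spread between these samples, which may be technical. Title numbers place the samples in 2 runs, called lower and higher here, each with 3 wildtype and 3 activated arrays, and what the runs stand for is not given. In both genotypes, arrays numbered 1 to 3 here belong to the lower run and those numbered 4 to 6 to the higher.

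Hedgehog ligands bind Ptch1, a receptor that otherwise holds the membrane protein Smo inactive. Freed Smo acts through the primary cilium to stop the processing of Gli2 and Gli3 into repressors, and Gli activators then switch on target genes, among them Gli1, Ptch1 and Hhip themselves. Gas1, Cdon and Boc are co-receptors that help the ligand to bind. In the developing kidney and ureter, Shh comes from the epithelium of the ureter and collecting duct and acts on the mesenchyme around it, while Gas1 is known from the progenitor cells of the nephron.

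Levels are given as log2(intensity + 16) after quantile normalisation, where a gene with no signal would read 4. Differences are activated minus wildtype on that scale, with the moderated standard error (SE) from limma, and a gene passed at a Benjamini-Hochberg adjusted p under 0.05 over all 12393 genes (two-sided). Probe sets for bacterial transcripts read at most 5.45, and values under this level are called dim here. The 2 runs differed in wildtype alone, with 631 genes (5.09%) passing between them. A list of 5 genes was read for Wnt activity. It was chosen with earlier results of these data known, so it is no independent check. Wif1, Nkd2, Apcdd1 and Axin2 rose and Calb1 fell in the lower run, where 0.597% of all genes passed. Apcdd1 rose in the higher run, where 0.00807% passed. Of the 5 genes, 4 were higher and 1 lower in activated arrays of that run, with a median difference of 1.08. At an unadjusted p under 0.05 limma gave 4 of the 5 there, and 6.36% of all genes. Activated 2 stood apart from the other arrays: its Gapdh control probe sets had a log2 ratio of 5' over 3' signal, which follows RNA quality, of 0.08, against -2.63 to -1.05 elsewhere.

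Gas1 was the gene of the 8 that changed, and it fell in activated kidneys of the lower run. There, wildtype arrays read 11.55, 11.53 and 11.59, and activated arrays read 10.67, 10.51 and 10.52. All 3 activated arrays lay below all 3 wildtype arrays (7.09% of all genes did), by a gap wider than the spread within either genotype. Gas1 differed by -0.99 (SE 0.10, 95% interval -1.21 to -0.77, adjusted p = 0.00182), a fold of 0.504, and ranked 14 of 12393 genes by its p. In this comparison 74 genes passed (0.597%), 33 of them down (0.266%), beside 1 of 8 members; at an unadjusted p under 0.05 it was 2 of 8 members, Gas1 and Foxf1, and 7.07% of all genes. In the deposited intensities the same arrays read 3072.60, 3077.67 and 3211.27 in wildtype and 1662.70, 1385.74 and 1499.24 in activated kidneys. Gas1 fell in 6 of 6 fits that left out single arrays, without activated 2 by 0.96 (adjusted p = 0.00456); without a variance trend it differed by the same -0.99 but missed the threshold (adjusted p = 0.0772).

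Gas1 differed much less in the higher run. Wildtype arrays read 11.77, 11.67 and 11.83, and activated arrays 11.58, 11.56 and 11.34. The activated arrays again lay below the wildtype arrays, as 5.73% of all genes did in this run. The groups were not apart in the deposited intensities, where activated 5 read 3066.63 and wildtype 5 read 3015.52. Gas1 differed by -0.26 (SE 0.09, 95% interval -0.46 to -0.06, adjusted p = 0.706), and 1 gene of all those tested passed in the higher run (0.00807%), but 0 of the 8 members. At an unadjusted p under 0.05 limma gave 1 of 8 members, Gas1, and 6.36% of all genes.

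The difference between the runs was itself tested, and Gas1 changed more in the lower run. The interaction of genotype and run was 0.73 (SE 0.12, 95% interval 0.46 to 0.99, adjusted p = 0.0242), among 41 genes called (0.331%), 12 of them upward (0.0968%). In wildtype Gas1 differed between the runs by 0.20, higher minus lower (SE 0.08, adjusted p = 0.181), while the activated means were 10.57 ± 0.09 and 11.50 ± 0.13 (SD, n = 3 arrays each). The interaction missed the threshold without wildtype 1, 3, 4 or 5 or activated 3, 4 or 5, with an adjusted p of at most 0.0847, and its size was 0.68 to 0.80 over all 12 such fits. It also missed it with arrays centred on their medians (0.88, adjusted p = 0.278) and without a variance trend.

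Over all 12 arrays Gas1 had a mean of 11.66 ± 0.12 in wildtype and 11.03 ± 0.52 in activated kidneys (SD, n = 6 arrays each). The 6 activated arrays spread widely and reached from 10.51 to 11.58, so that activated 4 and activated 5 overlapped the lowest wildtype arrays. Gas1 differed by -0.62 (SE 0.18, adjusted p = 0.447), and 0 of the 8 members were among the 3 genes called by limma (0.0242%); at an unadjusted p under 0.05 it was 1 of 8, Gas1, and 6.15% of all genes. When a run term was added the SE fell to 0.11 and Gas1 passed narrowly (adjusted p = 0.0484), 1 of 13 genes called (0.105%), of which 3 were down (0.0242%). That call was lost in 7 of 9 other settings, over which its adjusted p ran from 0.0334 to 0.426. It held without wildtype 5, activated 4 or activated 5 and was lost without any 1 of the other 9 arrays, with a highest adjusted p of 0.17.

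**Figure D1:**
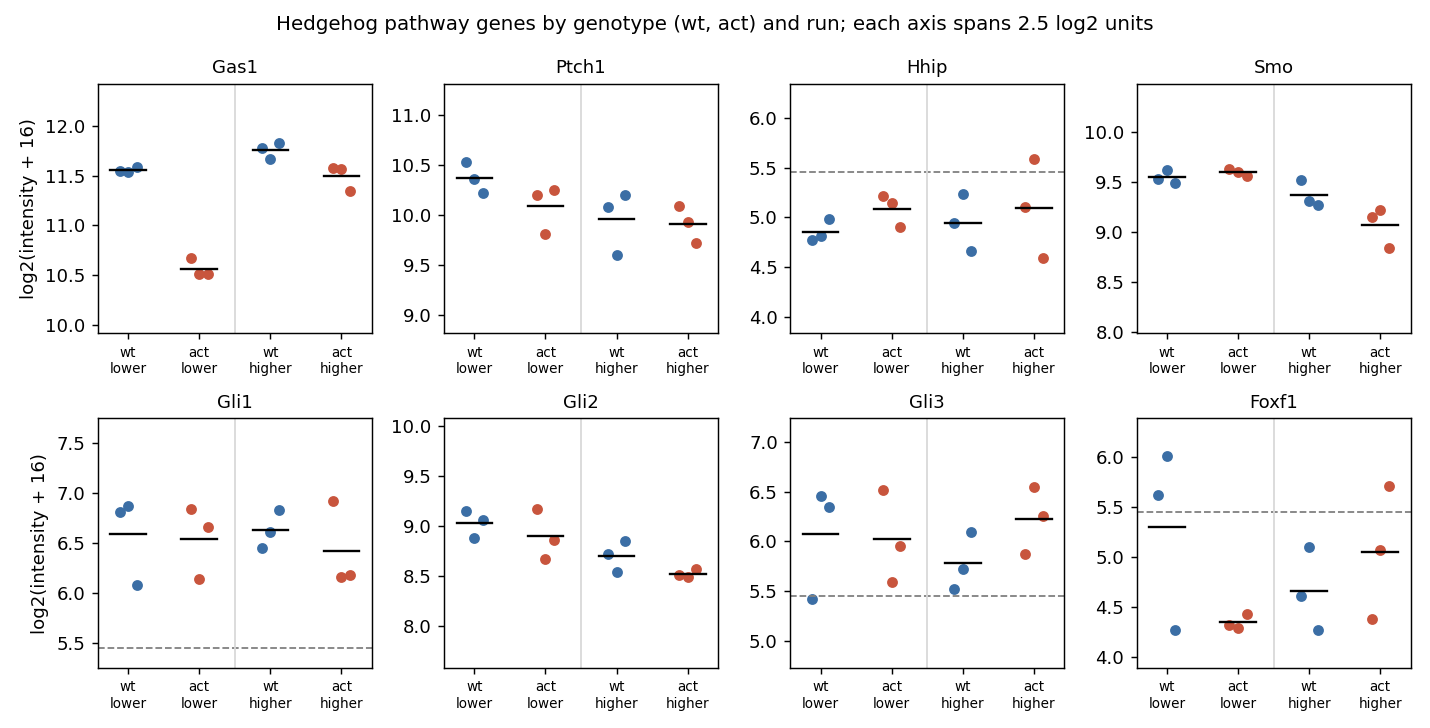
Level of each gene on 12 arrays, as log2(intensity + 16), by genotype (wt, wildtype; act, activated) and run; points are arrays, bars are group means, each axis spans 2.5 log2 units and the dashed line, where in range, is the highest bacterial control signal of 5.45. Gas1 in activated arrays of the lower run, at 10.51 to 10.67, lies apart from every other array, which read 11.34 to 11.83; levels of different genes are not comparable.

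Gas1 has 3 probe sets, of which 1416855_at, the brightest, gave the values above. The second, 1448494_at, read 10.37, 10.21 and 10.57 in wildtype and 9.67, 9.43 and 9.11 in activated arrays of the lower run, again without overlap, and differed by -0.98 (SE 0.17, adjusted p = 0.0572 over 20380 probe sets tested singly). The higher run gave -0.20 (SE 0.14, adjusted p = 0.92). The third, 1456322_at, was near the bacterial control signal. It differed by -1.35 in the lower run (SE 0.28, adjusted p = 0.134), where activated arrays read 4.12 to 4.54, and by 0.68 in the higher run (SE 0.37, adjusted p = 0.909). All 3 probe sets were thus lower in activated kidneys of the lower run, by like amounts in both bright ones. The mean of all 3, the dim one included, gives Gas1 a difference of 0.07 in the higher run, of opposite sign.

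**Figure D2:**
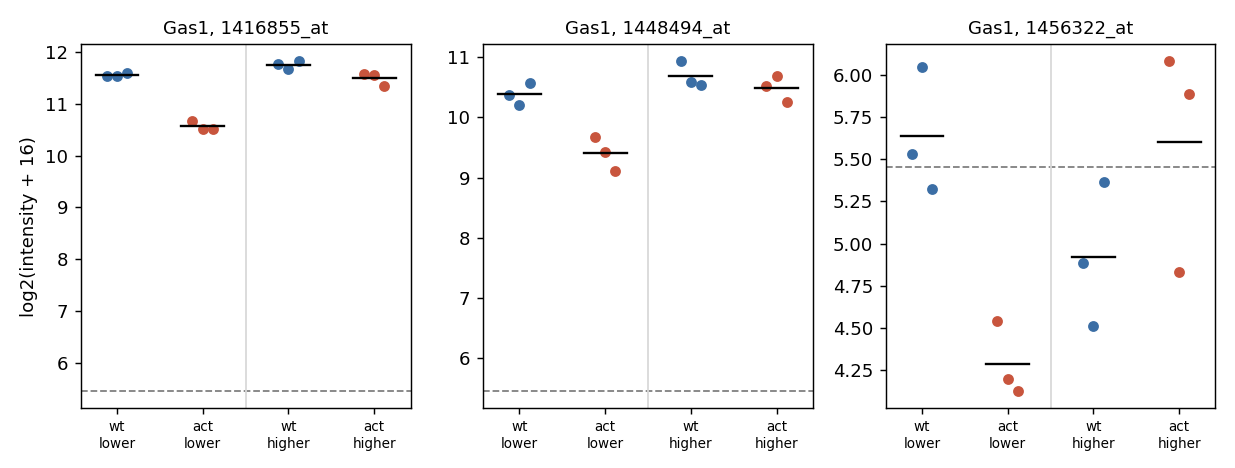
The 3 probe sets of Gas1 on 12 arrays, as log2(intensity + 16), by genotype and run, with points for arrays, bars for group means and the bacterial control signal of 5.45 as a dashed line where in range; each panel has its own axis. In the lower run the activated arrays lie below the wildtype arrays in each panel; in the higher run the panels differ.

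The stretch of 250 bases before the start of Gas1 is shown because Gas1 is the gene whose level changed, beside that of Gli2, the only member whose window held a part of the Gli motif. Both are from RefSeq (GRCm38.p6), 5′ to 3′ on the minus strand, at chr13:60177536-60177785 for Gas1 and chr1:119053620-119053869 for Gli2. Capitals mark the CCAAT box in Gas1 and, in Gli2, the inner part of the Gli motif read from the other strand.
Gas1: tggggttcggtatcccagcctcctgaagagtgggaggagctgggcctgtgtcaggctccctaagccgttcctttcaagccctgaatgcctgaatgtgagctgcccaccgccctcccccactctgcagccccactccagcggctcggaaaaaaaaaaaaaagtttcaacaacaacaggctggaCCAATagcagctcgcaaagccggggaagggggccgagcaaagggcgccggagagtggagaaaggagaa
Gli2: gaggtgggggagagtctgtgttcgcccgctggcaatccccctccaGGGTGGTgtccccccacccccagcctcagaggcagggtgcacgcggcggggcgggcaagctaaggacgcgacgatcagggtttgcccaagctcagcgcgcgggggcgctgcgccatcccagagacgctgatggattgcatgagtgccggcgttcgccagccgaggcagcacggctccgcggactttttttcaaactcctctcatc

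Of the 8 genes, 6 had such a window, 1 each; Gli1 and Foxf1 had none listed. Windows were searched on both strands for 4 motifs. The Gli consensus was taken as GACCACCCA, and its inner part, which overlaps it, as ACCACCC. The core that Tcf and Lef bind, through which beta-catenin reaches DNA, was taken as CTTTGA, and the box bound by NF-Y as CCAAT. GACCACCCA was in 0 of the 6 windows and in 0.225% of all 32851 windows. ACCACCC was in 1 of the 6, at 205 bases before the start of Gli2, and in 3.92% of all. CTTTGA was in 0 of the 6 and in 13.8% of all. CCAAT was in 1, at 68 bases before the start of Gas1, and in 33.8% of all. The Gas1 window had a GC content of 58.8%, the lowest of the 6, which reached 78.4% in Ptch1; the median over all windows was 52.4%.

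The other members at the cell surface did not pass in any comparison. Ptch1, the receptor and a target of the pathway, read 10.53, 10.36 and 10.22 in wildtype and 10.20, 9.81 and 10.25 in activated arrays of the lower run, which overlapped. In the higher run it read 10.08, 9.60 and 10.20 in wildtype and 10.08, 9.93 and 9.72 in activated arrays, also with overlap. It differed by -0.28 in the lower run (SE 0.15, 95% interval -0.62 to 0.06, adjusted p = 0.798) and by -0.05 in the higher run (95% interval -0.42 to 0.32, adjusted p = 0.98). In the 12-array model with a run term Ptch1 differed by -0.17 (95% interval -0.42 to 0.085). Its second probe set was dim on all 12 arrays.

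Hhip, a surface protein that captures Hedgehog ligands and a target of the pathway, was dim. Its brighter probe set had medians of 4.88 in wildtype and 5.13 in activated kidneys and reached 5.59, with 11 of 12 arrays under the bacterial control signal. It differed by 0.23 in the lower run (95% interval -0.30 to 0.77) and by 0.15 in the higher run (95% interval -0.51 to 0.81), and the other probe set gave 0.22 and -0.63. At this signal a fall in Hhip was not detectable, and a rise is bounded only by the intervals of the brighter probe set.

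Smo, the membrane protein that relays the signal inward, was bright. It read 9.53, 9.62 and 9.49 in wildtype and 9.63, 9.60 and 9.56 in activated arrays of the lower run, a difference of 0.05 (95% interval -0.23 to 0.33). In the higher run it read 9.52, 9.31 and 9.27 in wildtype and 9.15, 9.22 and 8.84 in activated arrays. The activated arrays of the higher run lay below the wildtype arrays, as 5.73% of all genes did. The difference of -0.30 (SE 0.13, 95% interval -0.60 to 0.005, adjusted p = 0.783) did not pass. The second probe set of Smo gave 0.08 and -0.06 in the lower and the higher run. The change between runs was -0.35 (adjusted p = 0.874).

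The 3 Gli genes, which encode the transcription factors of the pathway, did not pass either. Gli1, whose transcript is a common readout of Hedgehog activity, read 6.08 to 6.87 in wildtype with a median of 6.71, and 6.14 to 6.92 in activated arrays with a median of 6.42. The genotypes overlapped over nearly the whole range, and Gli1 differed by -0.04 in the lower run (95% interval -0.75 to 0.66) and by -0.21 in the higher run (95% interval -0.78 to 0.36). On this scale neither interval reaches the size of the fall of Gas1 in the lower run. The constant added before the logarithm shrinks changes of Gli1 more than those of Gas1. Their mean deposited intensities in wildtype were 83.6 and 3166.4. A fall of Gli1 in intensity as large as that of Gas1 is therefore not excluded. Gli2, the main activator, read 8.54 to 9.15 in wildtype (median 8.86) and 8.48 to 9.17 in activated arrays (median 8.62), and differed by -0.13 (95% interval -0.52 to 0.26) in the lower and -0.18 (95% interval -0.46 to 0.10) in the higher run. The second probe set of Gli2, dim on no array, gave 0.23 in the lower run, of opposite sign, and -0.27 in the higher run. Gli3, the main repressor, read 5.42 to 6.45 in wildtype (median 5.91) and 5.59 to 6.55 in activated arrays (median 6.11). It differed by -0.05 (95% interval -0.87 to 0.77) in the lower and 0.44 (95% interval -0.13 to 1.02) in the higher run.

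Foxf1, a forkhead factor that Hedgehog signals maintain in mesenchyme, was dim and uneven. Wildtype arrays of the lower run read 5.62, 6.01 and 4.27, and activated arrays 4.32, 4.29 and 4.43. Wildtype 1 and wildtype 2 thus lay above the bacterial control signal, while wildtype 3 was as low as the activated arrays. Foxf1 differed by -0.96 (SE 0.40, 95% interval -1.86 to -0.05, adjusted p = 0.635). All 3 activated arrays were dim, so the size of this difference is uncertain: it ran from -1.87 to -0.75 over 7 other settings and from -1.47 to -0.60 without single arrays. Higher-run wildtype arrays read 4.61, 5.10 and 4.27 and activated arrays 4.38, 5.07 and 5.71, a difference of 0.40 (95% interval -0.41 to 1.20). Its difference between the runs, 1.35 (SE 0.59, adjusted p = 0.75), did not pass.

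**Figure D3:**
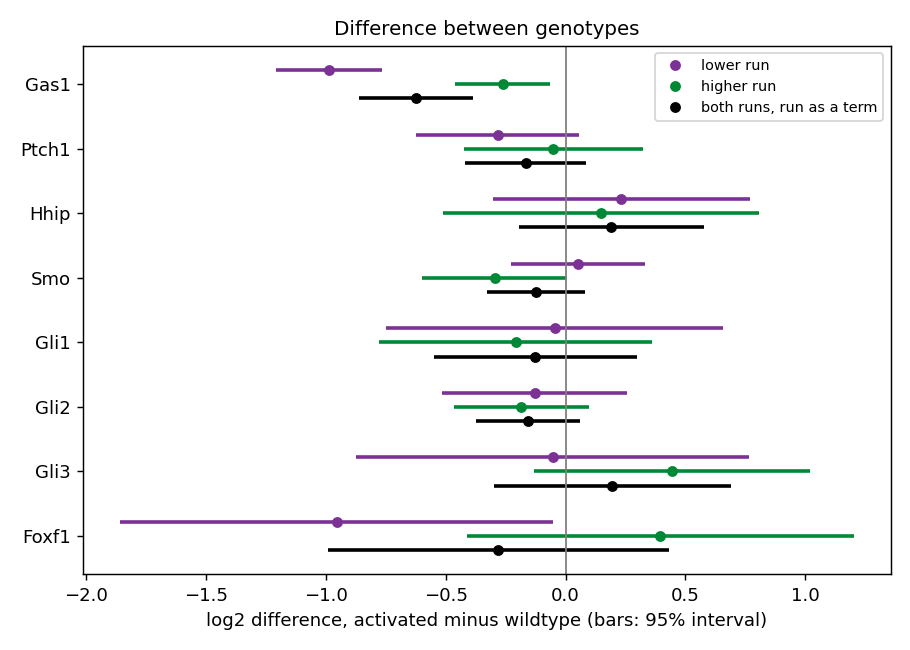
Log2 difference, activated minus wildtype, for the 8 genes in the lower run, in the higher run and in the 12-array model with a run term, with 95% intervals from limma. Gas1 passed in the lower run, at -0.99, and in the 12-array model with a run term, at -0.62; no other point did.

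As a group the 8 genes had a median difference of -0.09 in the lower run, where the median of all genes was -0.03, and 6 of 8 were negative against 54.4% of all genes. In the higher run the median was -0.12 and 5 of 8 were negative, against 50.3% of all genes. Between the wildtype arrays of the 2 runs, 0 of 8 members passed in limma (5.09% of all genes), 3 of 8 had an unadjusted p under 0.05 (19.7% of all), and the same 3 did not overlap (25.3% of all). Those 3 were Gas1, higher in the higher run by 0.20, and Gli2 and Ptch1, lower there by 0.33 and 0.41 (adjusted p = 0.202 and 0.195).

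The rest of the pathway was read from 5 lists. The 3 ligand genes Shh, Ihh and Dhh were dim on average, so their level in these cultures is not known from these arrays. Shh, the ligand of the ureter and collecting duct, differed by -0.09 in the lower run (95% interval -0.85 to 0.67) and by -0.35 in the higher run (95% interval -0.92 to 0.22). Dhh, the ligand of Schwann and testis cells, read 5.33, 4.85 and 4.53 in wildtype and 5.46, 5.65 and 6.01 in activated arrays of the lower run and differed by 0.80 (adjusted p = 0.538). Ihh, the ligand of growing cartilage, differed by -0.68 (adjusted p = 0.582). Of 6 measured genes for ligands and their release, 0 passed in either run, with 3 at an unadjusted p under 0.05 in the lower run (7.07% of all genes) and 0 of them in the higher (6.36%), and 5 were dim on average. The median difference of these 6 was -0.06 in the lower and -0.07 in the higher run.

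Among 5 measured receptors and co-receptors, 1 fell in the lower run, Gas1 (0.266% of all genes fell), and 0 rose (0.331% of all). Boc, another co-receptor, read 7.51, 7.64 and 7.66 in wildtype and 7.33, 7.27 and 7.21 in activated arrays of the lower run. In the higher run it read 7.49, 7.73 and 7.68 in wildtype and 7.31, 7.28 and 7.42 in activated arrays. All 6 activated arrays lay below all 6 wildtype arrays, as in 0.21% of genes, but not in the deposited intensities, where activated 6 read 165.949, above wildtype 1 at 162.816 and wildtype 4 at 164.554. The difference of -0.32 (SE 0.11, adjusted p = 0.619, or 0.366 in the model with a run term) did not pass. Cdon, the third co-receptor, was dim, at a mean of 4.25 in wildtype and 4.17 in activated arrays.

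Of 12 measured genes of signal transduction, Smo and the Gli genes among them, 0 passed in limma in either run (0.597% and 0.00807% of all). In either run 0 had an unadjusted p under 0.05, against 7.07% and 6.36% of all genes. At these shares 0 of 12 does not set the list apart. Differences lay between -0.29 and 0.395 in the lower run, with a median of -0.05. Of 10 genes of cilium assembly, the organelle on which Smo works, 0 passed in either run, 1 of 10 had an unadjusted p under 0.05 in each (7.07% and 6.36% of all genes), and the median was 0.00095 (lower run) and -0.03 (higher run).

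Of 13 measured Gli targets, 1 rose in the lower run, Bmp4, and 0 fell, while 0 passed in the higher run. At an unadjusted p under 0.05 limma gave 3 of 13 in the lower run (7.07% of all genes) and 0 in the higher (6.36%). Bmp4, a growth factor gene of the stroma and ureteral mesenchyme that also answers to Wnt and BMP signals, read 6.93, 6.59 and 6.08 in wildtype and 8.24, 9.23 and 8.31 in activated arrays of the lower run, without overlap. It rose by 2.06 (SE 0.32, adjusted p = 0.0205), where 0.331% of genes rose. Bmp4 differed by 0.45 in the higher run (SE 0.22, adjusted p = 0.815), and the difference between the runs was -1.61 (adjusted p = 0.16). Gli1, Ptch1 and Hhip, the targets most closely tied to the pathway, did not pass beside it, and the median of the 13 was -0.04 in the lower run. Of these 13 genes 5 were dim on average, and Osr1 is also in the list of nephron progenitor markers.

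**Figure D4:**
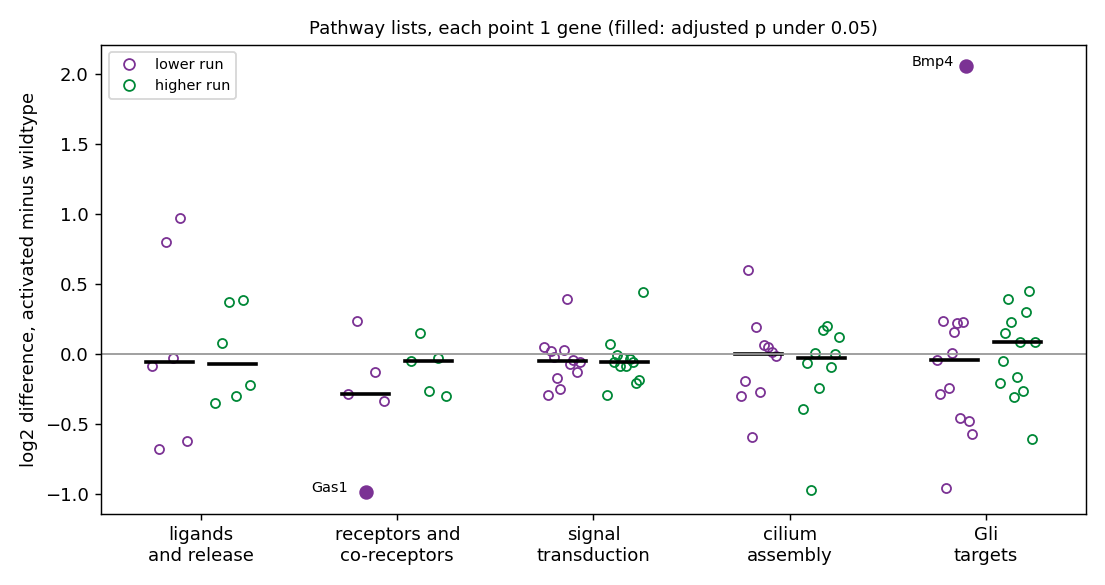
Log2 difference, activated minus wildtype, of each measured gene in 5 pathway lists, in the lower and the higher run; each point is a gene, filled where its adjusted p is under 0.05, and bars are medians. Gas1, at -0.99, and Bmp4, at 2.06, are the filled points, both in the lower run; Smo, Gli1 to Gli3, Ptch1, Hhip and Foxf1 are open.

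The pattern of Gas1 over the 12 arrays, after subtraction of each run's mean, was most like those of Six2 (r = 0.978), Scara3 (0.976), Sel1l3 (0.974), Foxd1 (0.965) and Dcx (0.964), among 8560 genes whose mean over the 12 arrays was above the bacterial control signal. That mean does not make a gene bright in every group, and Dcx was dim on all 3 activated arrays of the lower run. It was most opposed to those of Wif1 (r = -0.984), Pdzrn3 (-0.971), Dkk1 (-0.970), Apcdd1 (-0.965) and Sgk1 (-0.965). Wif1 was dim on all 6 wildtype arrays, with a mean of 4.84 against 7.64 in activated arrays, so its r rests on the activated arrays and its place in the order is uncertain. Six2 keeps nephron progenitors undifferentiated, Foxd1 defines the progenitors of the stroma, and Wif1, Dkk1 and Apcdd1 encode inhibitors of Wnt signalling. In the lower run Six2 fell by 2.01 and Foxd1 fell by 0.93, where in the higher run they differed by -0.29 and -0.22. These r are descriptions over 12 arrays that share the 2 genotypes, and a gene that differs between genotypes in the lower run shares that difference with Gas1. Between Gas1 and the members r was 0.572 for Ptch1, 0.47 for Gli2 and 0.175 for Gli1, and over all pairs of members the highest was 0.632, between Gli2 and Ptch1. For Gli1 the most like pattern was that of Myl6b (r = 0.889), followed by Nhsl1, Grb14, Bphl and Nap1l3, and the most opposed that of Ccn1 (-0.85), followed by Rasip1, Rnf144a, Clmp and Crtc3. For Ptch1 it was Cdip1 (r = 0.97), followed by Zkscan1, Hira, Nipsnap1 and Bod1l, and the most opposed was Cmtm7 (-0.939), followed by Pgam1, Igf2bp1, Vasp and Lrrc59. No gene of the 8 stands among these 30, but Hhip and Foxf1, whose means are under the bacterial control signal, could not be listed.

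In the lower run, markers of several cell types differed between genotypes in the direction of Gas1, those of nephron progenitors and renal stroma among them. The mean of 8 nephron progenitor markers lay between 7.84 and 8.16 in wildtype and between 6.29 and 6.95 in activated arrays of the lower run, where 4 of the 8 fell (Six2, Meox1, Uncx and Capn6, with Six2 down by 2.01), against 0.266% of all genes. Cited1 of the same list differed by -2.32 and did not pass (adjusted p = 0.0724). In the higher run it lay between 7.77 and 7.94 in wildtype and between 7.57 and 7.59 in activated arrays, where 0 passed and 0 had an unadjusted p under 0.05. The mean of 9 stromal markers lay between 10.42 and 10.55 in wildtype and between 9.79 and 9.81 in activated arrays of the lower run, where 4 of the 9 fell (Foxd1, Meis2, Aldh1a2 and Ntn1, by 0.83 to 2.02; 0.266% of all genes fell), and between 10.06 and 10.27 and between 10.13 and 10.22 in the higher run. None of the 8 and 9 markers was dim on average. Of the 9 stromal markers 8 were lower in activated arrays of the lower run. Pdgfrb was higher there, with means of 9.94 in wildtype and 10.26 in activated arrays. Between wildtype arrays of the runs the stromal mean did not follow Gas1. It was 10.48 in the lower and 10.15 in the higher run, while Gas1 was higher in the higher run by 0.20. The mean of 7 ureteric bud markers lay between 6.89 and 7.03 in wildtype and between 6.66 and 6.76 in activated arrays of the lower run, where 1 of the 7 fell, Calb1, and 3 were dim on average. Calb1 is also in the list read for Wnt activity. In the lower run 5 of the 7 were lower and 2, Wnt11 and the dim Ret, were higher, with a median difference of -0.14. The mean of 4 markers of neurons and glia lay between 6.42 and 6.70 in wildtype and between 5.52 and 5.67 in activated arrays. Of these 4, Dcx, a microtubule gene of migrating neurons, fell by 3.41, while Elavl4 differed by -1.29, Sox10 by -0.18 and the dim Tubb3 by 1.04, none of which passed. In whole cultures fewer cells of a type and less RNA per cell cannot be told apart, and the part of these cells in the result for Gas1 was not tested.

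**Figure D5:**
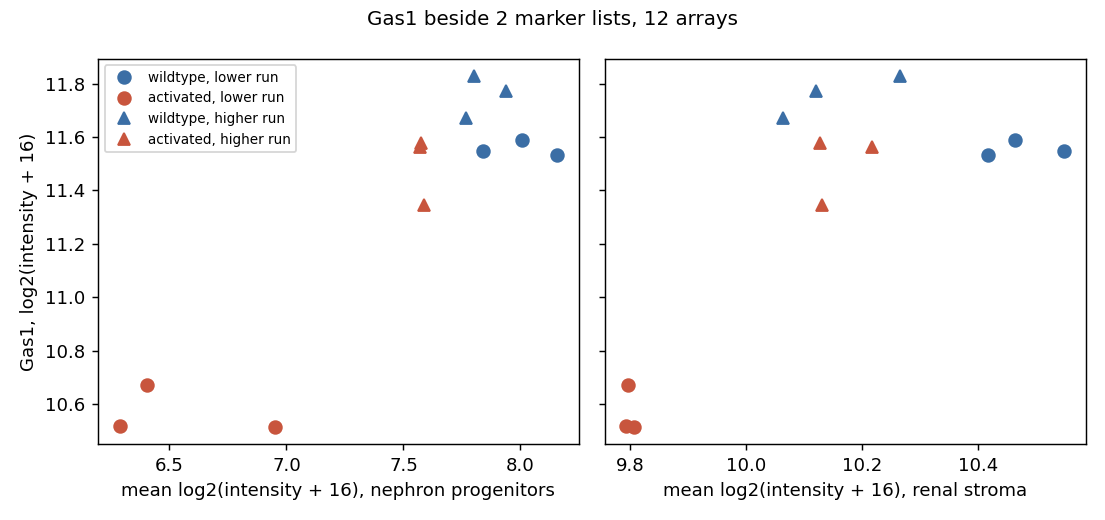
Level of Gas1, as log2(intensity + 16), against the mean level of 8 nephron progenitor markers (left) and 9 stromal markers (right) on 12 arrays; colour gives genotype and shape the run. The 3 activated arrays of the lower run lie apart at the lower left in both panels, with Gas1 at 10.51 to 10.67.

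The mesenchyme that answers to Shh around the ureter was read from 7 measured markers of ureteral mesenchyme and smooth muscle. Of these, 0 passed between genotypes in either run, with 1 at an unadjusted p under 0.05 in the lower run (7.07% of all genes) and 4 in the higher (6.36%). Their median difference was 0.31 in the lower and 0.395 in the higher run. Between wildtype arrays of the runs 4 of 7 rose, Acta2, Tagln, Cnn1 and Actg2, all genes of the smooth muscle cytoskeleton, by 0.97 to 1.52, where 5.09% of all genes passed. Tbx18 of the same list went the other way, the only 1 of the 7 to do so. Its mean was 6.93 in the lower and 5.96 in the higher run, and it did not pass. Beside these markers Gli1 differed by 0.04 (95% interval -0.55 to 0.63) and Ptch1 by -0.41 (95% interval -0.77 to -0.05). In the same comparison 1 of 6 urothelial markers rose, Upk3a, a plaque gene, by 2.43, while Krt5 differed by -0.27 and Upk1a by -0.19 without passing and the median of the 6 was 0.271. In addition, the macrophage genes Csf1r, Cd68 and Lyz2 rose by 0.88 to 2.06, while Foxd1 fell by 0.65, Aldh1a2 fell by 0.61 and Dcx fell by 0.64. All 5 macrophage markers were higher in the higher run. Of the 9 stromal markers 6 were lower there and 3 higher, and of the 4 markers of neurons and glia 2 were lower and 2 higher. The part of these cells in the levels of the members was not tested.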

How the data were processed

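The authors deposited 1 linear intensity per probe set (22690) and array, from Trizol-extracted RNA labelled with an Affymetrix kit for 3' arrays, per the labels' protocols. The sources used here do not give the software that summarised the probes. The deposited intensity values had been scaled per array: with 2% trimmed at each end, the array means were 250.099 to 250.126. For arrays, their number limits the precision.

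Values were taken as log2(intensity + 16), which understates changes of dim genes, and quantile normalised. Probe sets with 1 symbol in the platform table (20380) were kept, and 691 with several, 1555 with none listed and 64 controls were left out. A gene was read from its probe set with the highest mean. Models were fitted across all genes with limma 3.58.1 in R 4.3.3 with a variance trend: over all 12 arrays, with a run term, within each run, as an interaction, and between wildtype runs. The code was tested on simulated data. Alternatives were the values as deposited, median centring, a pseudocount of 1, a filter on the dimmest 40% of genes, probe sets averaged per gene, each probe set alone, no variance trend, array weights, a 5' to 3' covariate and each array left out. The members, lists and naming rule were chosen with earlier results of these data known. Named are all members, list genes that passed anywhere, ligands and co-receptors, and the 5 genes most like and most unlike Gas1, Gli1 and Ptch1. Promoter windows are RefSeq's. Plots used matplotlib 3.10.9.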

Additional observations from a re-analysis of the deposited data

Results flagged for a closer look

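The effect of activation differed between the runs in Gas1, by 0.73 (higher minus lower run, adjusted p = 0.0242), in Six2, by 1.72 (adjusted p = 0.0253), and in Wif1, by -2.79 (adjusted p = 0.008), each by the test of the interaction. In the activated arrays Cdon was highest in activated 6, at 4.40, where the next array read 4.18; all these values are dim. In the wildtype arrays Wif1 was lowest in wildtype 3, at 4.05, where the next read 4.78, and these are dim too. Of 34 groups examined in 17 genes, 2 had such an array, where chance gives about 1 in 20.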

How the results depend on the processing

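Gas1 in the lower run kept its direction in all 8 other settings run (-1.11 to -0.95) and passed in all but the one with no variance trend (0 members called), and in all 6 fits without a single array (1 to 1 members called). With a run term, 0 members were called with values as deposited, median-centred arrays, a pseudocount of 1, the mean of all probe sets, each probe set alone, no variance trend or array weights, and 0 to 1 without single arrays. The interaction called 0 members with median-centred arrays or no variance trend, and 0 to 1 without single arrays. Genes called over all 12 arrays were 1 with the mean of all probe sets, 1 with no variance trend and 5 with the 5' to 3' covariate, and 0 to 4 without single arrays. With a run term they were 8 with median-centred arrays, 8 with the mean of all probe sets, 7 with no variance trend, 78 with the covariate, and 4 to 20 without single arrays. In the lower run they were 39 with no variance trend, 186 with array weights, and 30 to 87 without single arrays; in the higher run 2 with median-centred arrays, 0 with the mean of all probe sets, 0 with no variance trend, and 0 to 1 without single arrays. For the interaction they were 18 with median-centred arrays (3 up and 15 down, against 12 and 29), 24 with no variance trend, 88 with array weights, and 16 to 47 without single arrays. Between wildtype runs they were 300 with no variance trend and 226 to 468 without single arrays. The cause of these changes was not tested.

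Values of members that did not pass changed sign as follows. With the mean of all probe sets, Hhip was -0.0086 over all 12 arrays and with a run term and -0.24 in the higher run, Gli2 was 0.0504 in the lower run, and Gas1 was 0.0709 in the higher run and -0.0681 between wildtype runs. With array weights, Gli1 was 0.23 and Gli3 0.22 in the lower run. Without single arrays, Gli1 ran from -0.30 to 0.16 and Gli3 from -0.38 to 0.16 in the lower run, and Ptch1 from -0.23 to 0.0697 and Hhip from -0.10 to 0.40 in the higher run. The interaction ran from -0.17 to 0.0805 for Gli2, from -0.41 to 0.0918 for Gli1 and from -0.33 to 0.17 for Hhip, and the wildtype difference from -0.21 to 0.18 for Gli1 and from -0.0521 to 0.24 for Hhip. No paired analysis was possible because replicate numbers were given here in accession order and pair no samples. With 3 arrays a group and dim probe sets, Hhip, Foxf1 and the ligands are limited by signal over background.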
